A study of Mus musculus with 9 samples.

Results

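miR-21, miR-31 and miR-34 are microRNAs (miRNAs) that are known to change when skeletal muscle is damaged or degenerates. Their levels were read in the quadriceps of mice without a working Mbnl1 or Mbnl2 gene, to see whether either loss came with a change of this kind. The members are 6 mature miRNAs, taken by name from the 1966 listed in the count table: mmu-miR-21a-5p, mmu-miR-21a-3p, mmu-miR-31-5p, mmu-miR-31-3p, mmu-miR-34a-5p and mmu-miR-34c-5p. Of these, 5 had a read in all 9 libraries and 1, miR-31-3p, was at 0 in all of them.

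Small RNA libraries were sequenced from 3 groups of 3, all from quadriceps at 90 days. The WT group was C57BL/6J with both genes intact (Mbnl1+/+ Mbnl2+/+). The Mbnl1KO group was C57BL/6J with Mbnl1 ΔE3/ΔE3 and Mbnl2 intact. The Mbnl2KO group had Mbnl1 intact and was labelled with another strain, B6.C-Tg(CMV-cre)1Cgn/J, which carries a Cre recombinase under the ubiquitous CMV promoter. Its Mbnl2 alleles were given as ΔE2/ΔE2 in replicate 1, ΔE2/ΔE3 in replicate 2 and ΔE2/ΔE4 in replicate 3. The text of the study instead names the same Mbnl2 allele for both copies. The labelled names count up by one from replicate to replicate, as a cell filled down in a spreadsheet would, so they may not describe 3 genotypes. The study also calls the WT mice littermates, whereas the labels give Mbnl2KO another strain than WT. These libraries hold no mRNA, so that the loss of Mbnl1 or Mbnl2 could not be checked in them. Loss of Mbnl2 and this strain background cannot be told apart here. The labels number the libraries as replicates without saying that each came from its own mouse, so p-values measure the spread between these libraries.

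The muscleblind-like proteins MBNL1 and MBNL2 bind RNA and steer splicing and other steps of RNA maturation, and their sequestration underlies much of myotonic dystrophy. A miRNA is cut from a hairpin precursor, and either arm (5p or 3p) can be loaded into the silencing complex, where bases 2 to 8, the seed, pair with target mRNAs. miR-21 is abundant in fibroblasts and immune cells and is known for its induction in injury and fibrosis. miR-31 acts in muscle stem cells, where it holds back Myf5 translation, and is raised in dystrophic muscle. The miR-34 family is induced by the tumour suppressor p53 and slows the cell cycle.

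The mature sequences are shown for their seeds, which set the targets a miRNA pairs with. They are from RefSeq (build GRCm38.p6), which gave 5 of the 6 members, and capitals mark the seed.
miR-21a-5p: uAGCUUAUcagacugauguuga
miR-21a-3p: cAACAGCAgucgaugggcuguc
miR-31-5p: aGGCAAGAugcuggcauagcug
miR-31-3p: uGCUAUGCcaacauauugccauc
miR-34a-5p: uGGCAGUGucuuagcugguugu
The 5 seeds printed are all different. miR-34c-5p is known as a member of the same seed family as miR-34a-5p. miR-21a-5p lies at chr11:86584120-86584141 and miR-21a-3p at chr11:86584082-86584103, both on the minus strand. miR-31-5p lies at chr4:88910614-88910635 and miR-31-3p at chr4:88910577-88910599, also on the minus strand. miR-34a-5p lies at chr4:150068473-150068494 on the plus strand. In the GENCODE annotation of the later build GRCm39, the miR-21a hairpin falls in exons of Vmp1 on the same strand. The miR-31 hairpin falls in an exon of the long non-coding RNA Gm49890. The miR-34a hairpin falls in an intron of the long non-coding RNA Gm13067 and in an exon of Gm37795, an unclassified transcript. The miR-34c hairpin lies in an intron of Btg4 on the opposite strand, 451 bases from the hairpin of miR-34b.

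The libraries held between 4761271 and 6277018 counted reads, and between 524 and 602 mature miRNAs with a read. miR-1a-3p, the muscle miRNA that represses non-muscle transcripts, took between 61.4% and 73.7% of each library, so every other miRNA shares the remainder. Muscle markers set the tissue: miR-133a-3p, miR-133b-3p and miR-206-3p were present beside miR-1a-3p, although miR-486a-5p was listed at 0. Mbnl1KO replicate 2 stood apart in markers of slow fibres and of red blood cells. miR-499-5p had 98.9 normalized counts there and between 3.91 and 31.2 in the other libraries, and miR-208b-3p had 8.24 there and 0 elsewhere. The red cell miR-451a had 821 there and between 393 and 601 elsewhere. The sum of 5 markers of liver, brain and epithelium stayed between 4.96 and 15.9 normalized reads per library. A normalized count is a read count divided by the library's effective size (TMM) and brought to a common scale. Fewer cells of a type and less RNA per cell cannot be told apart in such bulk tissue.

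mmu-miR-21a-5p was the most abundant member by far. It ranked between 8 and 11 among all miRNAs in every library and took between 0.748% and 1.25% of the reads. The WT libraries had 53912, 66009 and 64709 normalized counts. The Mbnl1KO libraries had 54683, 64990 and 54549, which lie within the WT range. The Mbnl2KO libraries had 47292, 44599 and 51768, all below the lowest WT library. The group means were 61543 ± 6641 in WT, 58074 ± 5990 in Mbnl1KO and 47887 ± 3621 in Mbnl2KO (SD, n = 3).

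Its passenger arm, miR-21a-3p, was read between 2 and 8 times per library. The 3p arm made up 0.0070% of the reads of both arms in WT, with an exact 95% binomial interval of 0.0036% to 0.012%. The share was 0.0069% in Mbnl1KO (0.0038% to 0.012%) and 0.0082% in Mbnl2KO (0.0041% to 0.015%). The 3 intervals overlap almost completely, and no difference in arm use was detectable at this depth. These intervals cover counting error only.

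mmu-miR-31-5p was a rare miRNA here. It was read 16, 15 and 21 times in WT, 49, 21 and 39 times in Mbnl1KO and 31, 36 and 28 times in Mbnl2KO. In normalized counts the means were 19.2 ± 5.86, 30.2 ± 7.63 and 33.8 ± 2.60 (SD, n = 3). All Mbnl2KO libraries were above the highest WT library, while 1 of the Mbnl1KO libraries, replicate 2 at 21.6 normalized counts, fell inside the WT range. miR-31-3p had no read in any library, and a count of 0 allows up to 3 counts in each. Over all libraries, 3 counts would be 1.17% of the 256 reads of miR-31-5p. This limit covers counting error only: miR-486a-5p, miR-142a-3p and both arms of miR-126a, known from muscle, blood and vessels, were also listed at 0 in every library, and whether the counting left such miRNAs out was not tested.

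mmu-miR-34a-5p was the second most abundant member. The WT libraries had 172, 197 and 269 normalized counts, the Mbnl1KO libraries 239, 283 and 210, and the Mbnl2KO libraries 167, 149 and 167. All Mbnl1KO libraries were above all Mbnl2KO libraries, and WT overlapped with Mbnl1KO. The lowest WT library lay just above the highest Mbnl2KO library on this scale over 9 libraries, and below it on the scale of the 6 libraries compared. miR-34c-5p, cut from a separate precursor shared with miR-34b, was read 13, 17 and 19 times in WT, 40, 38 and 27 times in Mbnl1KO and 13, 23 and 6 times in Mbnl2KO. Its normalized means were 17.9 ± 4.83, 30.5 ± 8.34 and 14.3 ± 7.54 (SD, n = 3). There were between 11.5 and 12.3 reads of miR-34a-5p for each read of miR-34c-5p in WT, between 7.24 and 9.30 in Mbnl1KO, and between 6.65 and 22.0 in Mbnl2KO, where the lowest and highest of all the ratios lay.

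**Figure D1:**
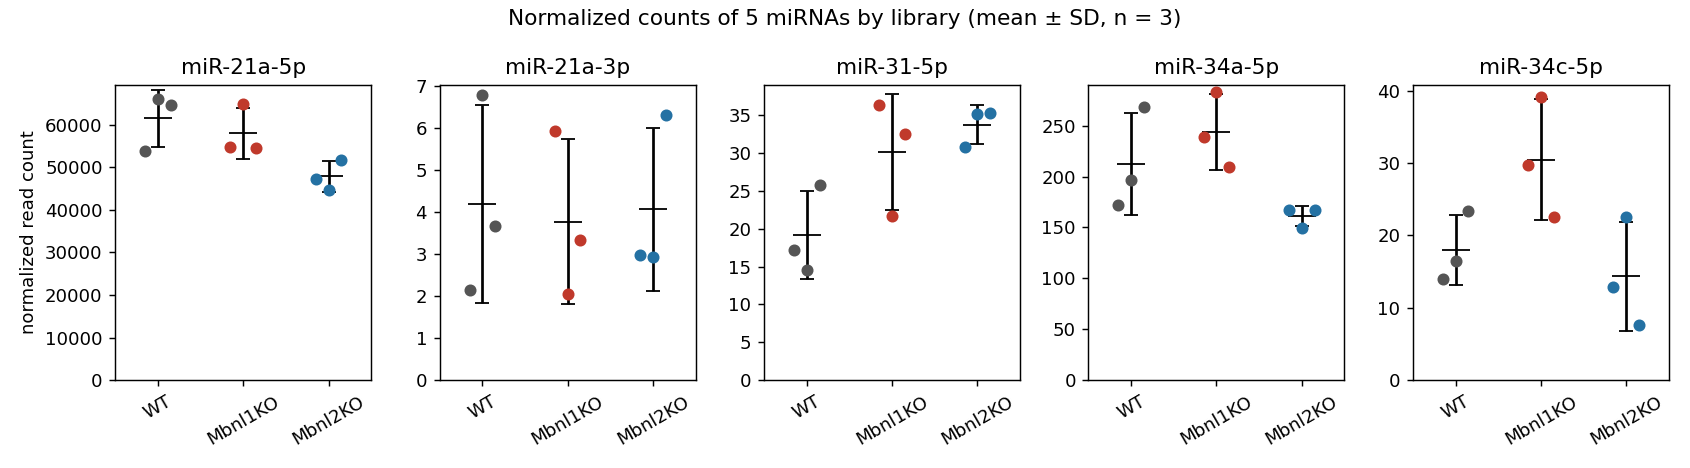
Normalized read counts (vertical axis, linear from 0, a scale of its own in each panel) of miR-21a-5p, miR-21a-3p, miR-31-5p, miR-34a-5p and miR-34c-5p in WT, Mbnl1KO and Mbnl2KO libraries; points are libraries and bars show the mean and SD of 3. The Mbnl2KO points for miR-21a-5p lie below the WT points, and those for miR-31-5p lie above them.

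Beside miR-34c-5p, the relatives of the members by seed or arm had few reads or none. miR-21c, which shares the miR-21a-5p seed, had no read. Of the other miRNAs with the miR-34a-5p seed, miR-34b-5p had 1 read in all, miR-449a-5p had 7 and miR-449c-5p had none. The opposite arms miR-34a-3p and miR-34c-3p never exceeded 1 read in a library. miR-34b-3p, from the same precursor region as miR-34c, was read 5, 8 and 4 times in WT, 7, 8 and 10 times in Mbnl1KO and 0, 3 and 0 times in Mbnl2KO. Its mean was too low to be tested.

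Between Mbnl1KO and WT, 4 of the 6 members passed the filter of a mean normalized count above 10 and were tested; miR-21a-3p and miR-31-3p were not. None of the 4 was differentially expressed (adjusted p under 0.05, edgeR quasi-likelihood test with Benjamini-Hochberg adjustment over the 317 miRNAs tested), 1 had an unadjusted p under 0.05, and DESeq2 called none. In the same comparison 33.1% of all miRNAs tested were called, and 42.3% had an unadjusted p under 0.05. No member's groups were apart, as they were for 44.8% of all tested. miR-34c-5p had a log2 fold change of 0.76 (SE 0.35, 95% interval 0.06 to 1.46, adjusted p = 0.0853). miR-31-5p had 0.68 (SE 0.35, interval -0.01 to 1.37, adjusted p = 0.122). miR-34a-5p had 0.20 (interval -0.17 to 0.57, adjusted p = 0.433), which moved to 0.060 without WT replicate 1 and to 0.39 without WT replicate 3. miR-21a-5p had -0.09 (interval -0.38 to 0.21, adjusted p = 0.700), so that rises above 1.15-fold and falls beyond 0.770-fold are outside its interval. With library totals in place of TMM, a scaling that moves the median of all tested miRNAs from -0.01 to 0.28, miR-21a-5p turned to 0.20 while miR-31-5p (0.99, adjusted p = 0.0253) and miR-34c-5p (1.05, adjusted p = 0.0184) were called. Without Mbnl1KO replicate 2, miR-31-5p was called at 0.89 (adjusted p = 0.0428).

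Between Mbnl2KO and WT the same 4 were tested and none was called by edgeR, with 2 unadjusted p-values under 0.05 and none called by DESeq2. Here 5.8% of the 293 miRNAs tested were called, and 18.1% had an unadjusted p under 0.05. miR-31-5p had a log2 fold change of 0.85 (SE 0.34, interval 0.15 to 1.54, adjusted p = 0.154), a 1.80-fold difference in which the groups did not overlap. Groups that did not overlap were found for 23.2% of the miRNAs tested in this comparison. miR-21a-5p had -0.34 (SE 0.12, interval -0.60 to -0.09, adjusted p = 0.123), with all Mbnl2KO libraries below all WT libraries. On the scale of the fit with no filter beyond 1 count, its groups overlapped. miR-34a-5p had -0.38 (interval -0.77 to 0.01, adjusted p = 0.295), which moved to -0.55 without WT replicate 1 and to -0.17 without WT replicate 3. miR-34c-5p had -0.26 (interval -1.14 to 0.61, adjusted p = 0.787), which moved to -0.68 without Mbnl2KO replicate 2 and to -0.01 without Mbnl2KO replicate 3.

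The knockouts were then compared directly, with no WT library in the fit. miR-34a-5p was higher in Mbnl1KO than in Mbnl2KO, by 0.60 on the log2 scale (SE 0.18, interval 0.21 to 0.98, adjusted p = 0.0244, edgeR), or 1.51-fold. It was the 1 member called of the 4 tested, where 26.9% of the 309 miRNAs tested were called. Of the members, 3 had an unadjusted p under 0.05, as had 39.2% of those tested. Its groups did not overlap, as for 47.9% of those tested. Among the fits that left out 1 library, 3 of 6 still called it. It was not called without Mbnl1KO replicate 2 (0.44, adjusted p = 0.0903), the library that stood apart in miR-499-5p, miR-208b-3p and miR-451a and had the highest miR-34a-5p and miR-34c-5p, without Mbnl2KO replicate 2 (0.53, adjusted p = 0.0659) or without Mbnl2KO replicate 3 (0.57, adjusted p = 0.0644).

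miR-34c-5p differed by 1.04 (SE 0.39, interval 0.21 to 1.87, adjusted p = 0.0614), or 2.06-fold, which did not pass. Its call depended on the processing: with TMM computed over all miRNAs before the filter it had 1.06 (adjusted p = 0.0378), and DESeq2's Wald test gave 1.05 (adjusted p = 0.0919). It was also called with all 9 libraries in 1 fit (adjusted p = 0.0353), with library totals (0.0097) and with totals without miR-1a-3p (0.0491), among adjusted p-values of 0.0097 to 0.180 over its alternatives. It was called without Mbnl2KO replicate 2 (adjusted p = 0.0121). The lowest Mbnl1KO library, at 22.5 normalized counts, lay just above the highest Mbnl2KO library, also at 22.5. miR-21a-5p differed by 0.28 (interval 0.03 to 0.52, adjusted p = 0.0857), and by 0.15 without Mbnl1KO replicate 2. It was called with library totals (0.57, adjusted p = 0.00613), with totals without miR-1a-3p (0.34, adjusted p = 0.0426) and with a mean above 100 (0.30, adjusted p = 0.0496), among adjusted p-values of 0.00613 to 0.346 over its alternatives. miR-31-5p differed by -0.15 (interval -0.76 to 0.46, adjusted p = 0.698), a sign that turned with library totals and without Mbnl1KO replicate 2. The Mbnl1KO and WT, and Mbnl2KO and WT, comparisons share the WT libraries.

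**Figure D2:**
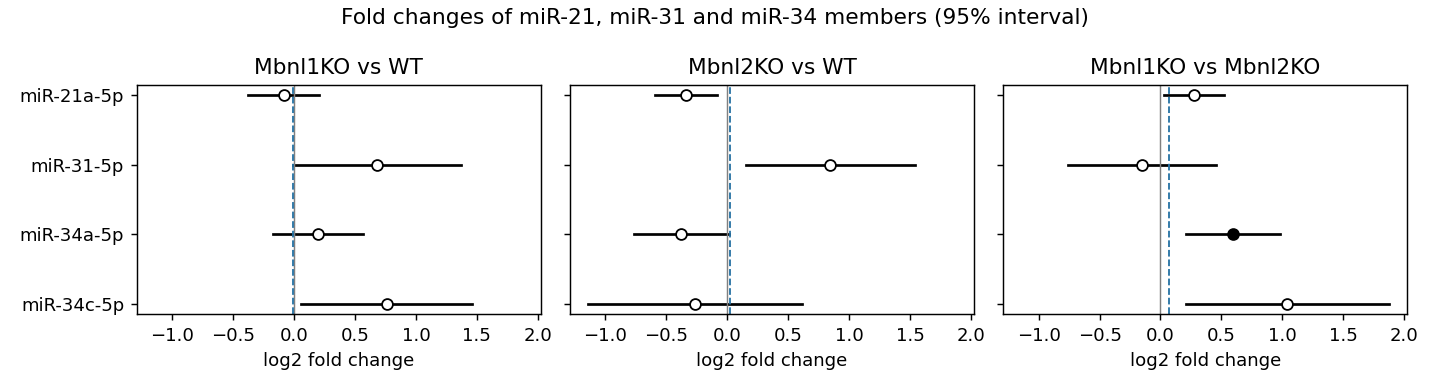
Log2 fold change (horizontal axis) of the 4 tested members in each comparison, with lines for the 95% interval; filled points have an adjusted p under 0.05, and the dashed line is the median of all miRNAs tested. Only miR-34a-5p between the knockouts is filled, at 0.60.

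Markers of infiltrating cells were read beside these values, since miR-21 is abundant in such cells. Of 7 miRNAs of immune cells, 6 were tested. In Mbnl1KO against WT, 4 were lower: miR-223-3p of neutrophils and macrophages (-0.87), miR-142a-5p of blood cells (-0.84), and the inflammation-induced miR-146a-5p (-0.49) and miR-146b-5p (-1.32). One, miR-155-5p of activated lymphocytes and macrophages, was higher (0.86). Over all 317 miRNAs tested, 45 were lower and 60 higher. The same 5 were called in the same directions between Mbnl1KO and Mbnl2KO, where 26.9% of all miRNAs were called, and none was called in Mbnl2KO against WT, where 5.8% were. Their summed level was between 3176 and 4242 normalized counts in WT, between 2756 and 3032 in Mbnl1KO and between 3356 and 3734 in Mbnl2KO, with miR-142a-3p at 0 throughout. Their part in the miR-34a-5p difference was not tested. Of 6 markers of fibroblasts and vessels, 4 were tested, and both arms of miR-126a were at 0. None was called in Mbnl1KO against WT (33.1% of all miRNAs) or between the knockouts (26.9%). In Mbnl2KO against WT (5.8% of all miRNAs) 1 was higher, miR-143-3p of smooth muscle and fibroblasts (0.48, adjusted p = 0.0169). The summed level of this list was between 31965 and 36120 normalized counts in WT, between 29543 and 45059 in Mbnl1KO and between 39597 and 45140 in Mbnl2KO. Its part in the miR-21a-5p values was not tested.

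The other miRNAs tied to muscle damage were counted for context. Of 8 linked to regeneration and dystrophy, 7 were tested, and 3 were higher in Mbnl1KO than in WT with none lower, where 33.1% of all miRNAs were called. These were the myogenic miR-206-3p (1.93, adjusted p = 4.37e-21) and miR-133b-3p (0.71), whose reads may be shared with the near-identical miR-133a, and miR-494-3p (0.64). In Mbnl2KO, where 5.8% of all miRNAs were called, 3 were also higher, miR-206-3p (0.89) and both arms of miR-335 (0.56 for 5p). miR-335-3p had between 46.6 and 59.2 normalized counts in WT and between 68.2 and 143.6 in Mbnl2KO. miR-206-3p had between 3580 and 4342 normalized counts in WT, between 12851 and 16157 in Mbnl1KO and between 5933 and 8325 in Mbnl2KO. The median log2 fold change of the list was 0.32 in Mbnl1KO and 0.37 in Mbnl2KO, beside -0.01 and 0.02 over all miRNAs tested. Of 6 miRNAs of fibrosis, 1 fell in Mbnl1KO, miR-199a-3p (-0.43), which has the sequence of miR-199b-3p, and none was called in Mbnl2KO. miR-29c-3p is in this list and in that of miRNAs lost with fibres, so these lists are not separate. None of 3 miRNAs lost with muscle fibres was called against WT in either knockout. miR-1a-3p had -0.40 in Mbnl1KO (adjusted p = 0.0502), with groups that did not overlap, and 0.02 in Mbnl2KO. The study, testing with DESeq2, reports miR-1 as significantly lower in Mbnl1KO, with less of its more abundant primary transcript. miR-135a-5p had -0.09 in Mbnl1KO and -1.46 in Mbnl2KO (adjusted p = 0.0923). Of 9 further p53 targets, 4 were tested. In Mbnl1KO miR-107-3p, which differs little from miR-103, was higher (1.55) and miR-194-5p lower (-0.51), and in Mbnl2KO none was called.

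**Figure D3:**
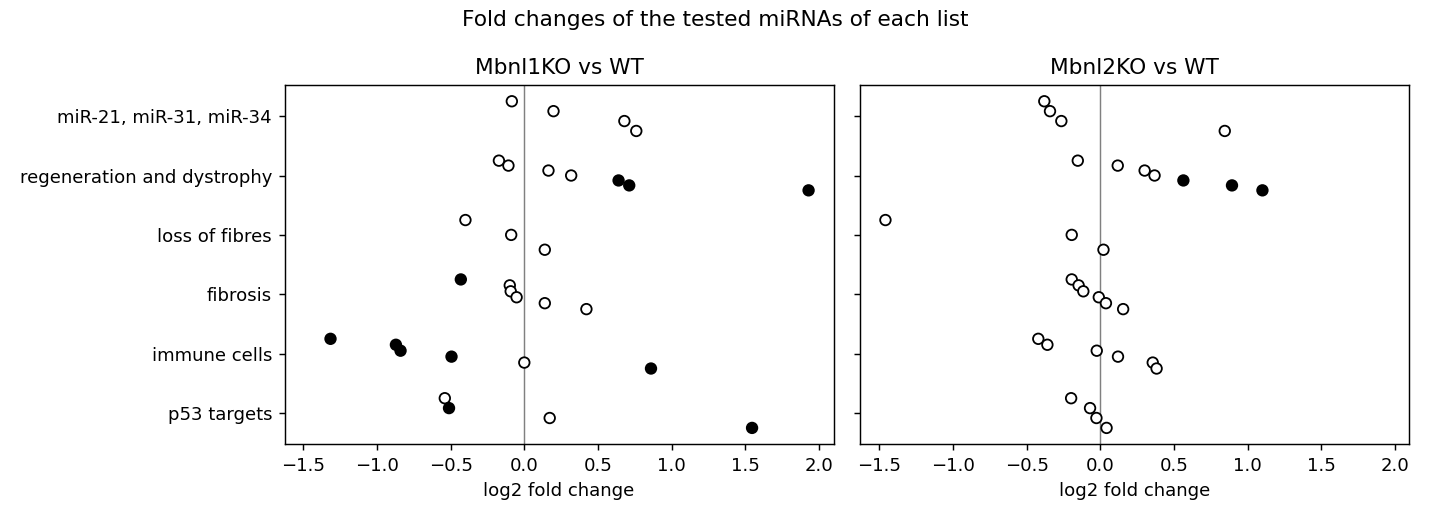
Log2 fold change against WT (horizontal axis) of every tested miRNA of each list, in Mbnl1KO (left) and Mbnl2KO (right); filled points have an adjusted p under 0.05. No point of miR-21, miR-31 and miR-34 is filled in either panel, while the regeneration list has 3 filled points in each.

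The miRNAs most like miR-21a-5p across the 9 libraries, of 309 compared, were miR-29a-3p (Pearson r = 0.92), miR-190a-5p (0.86) and miR-421-3p (0.81). With group means removed these were 0.92, 0.70 and 0.62. Those most like miR-34a-5p were miR-15a-5p (0.86), miR-133b-3p (0.81) and miR-21a-5p (0.80), or 0.92, 0.70 and 0.73 with group means removed. These are descriptions over 9 libraries scaled together, picked as the highest of many. The values across the 9 libraries include the differences between the groups.

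MBNL proteins are known to bind GC steps with U or C on either side. All such tetramers (UGCU and its variants with C in place of either U) were counted in the hairpins, with overlaps and on the RNA strand only. There were 5 in the miR-31 hairpin, 2 in that of miR-34a, 1 in that of miR-34c and 0 in that of miR-21a. Of the 1005 mouse hairpins in the RefSeq table, 2.09% held at least 5 and 68.1% at least 1. The miR-31 hairpin is 106 bases long, against a median of 79.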

How the data were processed

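Small RNA was sequenced from quadriceps of 3 WT, 3 Mbnl1KO and 3 Mbnl2KO libraries. The deposited values are raw counts per mature miRNA. The methods of the study describe matching clipped reads to miRBase precursors without mismatches and summing reads near each mature end, and whether this made the deposited table is not stated. The submitters' notes name DESeq2.

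From these counts, each pair of groups (6 libraries) was tested with edgeR 4.0.16 (quasi-likelihood, robust, two-sided) after TMM normalization in R 4.3.3. miRNAs with a mean count above 10, normalized by DESeq2 1.42.0 size factors, were kept first, TMM was computed on those, and p-values were Benjamini-Hochberg adjusted over all of them with a threshold of 0.05. This order was adopted after the result with TMM before the filter had been seen, and that result is given as an alternative; the change took miR-34c-5p out of the calls between the knockouts. SE is the log2 fold change divided by the root of F. The script was tested on simulated data.

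The members and lists were chosen with earlier results of these data known. Named were the 6 members, their relatives by seed or arm, called miRNAs of the lists, and for members with a mean normalized count above 50 the 3 most correlated miRNAs (log2 of normalized count plus 1). Totals of 4761271 to 6277018 reads leave low counts for miR-31-5p and miR-34c-5p. Replicate libraries varied beyond sampling noise.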

Additional observations from a re-analysis of the deposited data

Results flagged for a closer look

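The level of miR-34a-5p differed between the 2 knockouts. Against WT it was called in neither, at 0.20 in Mbnl1KO (edgeR, adjusted p = 0.433) and -0.38 in Mbnl2KO (adjusted p = 0.295). The knockouts also carry different strain labels, so genotype and strain cannot be told apart here. The direct test between Mbnl1KO and Mbnl2KO gave a log2 difference of 0.60 (edgeR, adjusted p = 0.0244), with all 3 Mbnl1KO libraries above all Mbnl2KO libraries. It was 1 call among 4 members tested, beside 26.9% of all miRNAs called in that comparison, and it was not called in 3 of 6 fits without 1 library (adjusted p of 0.0644 to 0.0903).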

How the results depend on the processing

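No member was called in Mbnl1KO against WT except with library totals or without Mbnl1KO replicate 2, or in Mbnl2KO against WT except with the replicate block. With library totals, 2 members were called in Mbnl1KO against WT and 3 between the knockouts, miR-21a-5p turned to 0.20 in the first and miR-31-5p to 0.16 in the last, and 7 of all miRNAs were called in Mbnl2KO against WT. Between the knockouts the count of members was 2 with a mean above 100, where 2 members were tested and 59 of 167 miRNAs were called. It was 2 of 4 tested with all 9 libraries in 1 fit and with TMM before the filter. It was 3 with totals without miR-1a-3p, and 0 with an adjusted p under 0.01. TMM before the filter and totals without miR-1a-3p were chosen after seeing the data. Leaving out 1 library gave 0 to 1 members called in Mbnl1KO against WT and 0 to 1 between the knockouts, where miR-31-5p lay between -0.30 (without Mbnl1KO replicate 1) and 0.0035 (without Mbnl1KO replicate 2).

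Counts over all miRNAs were 105 of 317 tested, 17 of 293 and 83 of 309. A mean above 100 left fewer to test and gave 68 of 167 in Mbnl1KO and 9 of 155 in Mbnl2KO against WT. All 9 libraries in 1 fit gave 11 in Mbnl2KO. A threshold of 0.01 gave 6 in Mbnl2KO and 45 between the knockouts. Leaving out 1 library gave 6 to 25 in Mbnl2KO (6 without WT replicate 2) and 55 to 93 between the knockouts (55 without Mbnl1KO replicate 3). The causes were not tested.

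The split of calls moved with the scaling. The share higher was 57.1% in Mbnl1KO against WT and 89.2% with library totals, and 56.6% and 94.6% between the knockouts.

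Same-numbered libraries deviated together with correlations between -0.154 and 0.132, so the replicate numbers do not pair them. With the replicate block, 1 member was called in Mbnl2KO against WT, miR-21a-5p (-0.34, adjusted p = 0.0105), and 2 between the knockouts, with miR-34c-5p at 1.12 (adjusted p = 0.0322). Counts of 6 to 49 reads limit miR-31-5p and miR-34c-5p, and miR-21a-3p, at 2 to 8 reads, was tested only without the filter (adjusted p of 0.931 to 0.998).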
